A study of Danio rerio with 25 samples.

Results

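The genes described here encode the Wnt ligands of the zebrafish, their receptors, their secreted agonists and antagonists, and the core intracellular proteins that read the signal out. They were taken from the deposited RNA count table by gene name (wnt followed by a digit, fzd, dkk, sfrp, axin, rspo, lgr4 to lgr6, lef1 and names beginning with tcf7). Of the 31275 genes in the table, 59 matched, and 58 had at least 10 counts summed over the 11 RNA libraries; wnt8a.1 had 0 counts. The 58 members were 24 Wnt ligands, 4 R-spondins, 12 Frizzled receptors, 2 Lgr receptors, 5 Dickkopf genes, 4 secreted Frizzled-related genes (Sfrp), 2 Axin genes and 5 Tcf/Lef genes. A filter on low counts left 52 for testing, and wnt3, wnt8a, wnt9b, rspo4, lgr6 and tcf7 were not tested. Of the 61954 accessible regions (peaks) of the chromatin data, 214 were assigned to 46 of the members.

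Epicardium, the cell layer that covers the heart, was purified from zebrafish at 5 days post fertilization and from adults 3 days after cryoinjury, a freezing injury of the ventricle, or after sham surgery. Larval epicardium and larval non-epicardium were sorted by fluorescence from tcf21:H2B-Dendra2 hearts for RNA (3 libraries each) and for accessibility (2 libraries each), and from tbx18:myr-Citrine hearts for accessibility (2 libraries each). Adult epicardium carried tcf21:BirA-mCherry, and its RNA came from a nuclear pulldown (3 cryoinjury libraries, 2 sham libraries), whereas its chromatin came from sorted cells (4 cryoinjury libraries, 2 sham libraries). The tcf21 and tbx18 regulatory sequences that drive these reporters define what was purified: cells in which neither is active are in the non-epicardial fraction or were not collected. Stage, surgery, reporter construct and, for RNA, purification method changed together between larva and adult and cannot be told apart. The labels do not say which replicates came from separate pools of animals, so each p-value measures the spread between these samples.

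Wnt ligands are secreted lipid-modified proteins that bind Frizzled receptors. With an Lrp co-receptor they stop the Axin-containing complex from degrading beta-catenin, which then acts on target genes through Tcf/Lef factors; other ligands act on cell polarity and movement without beta-catenin. R-spondins, through Lgr receptors, keep Frizzleds at the cell surface and so strengthen the response, while Sfrps bind ligands and most Dickkopfs block the co-receptor. In the vertebrate heart, Wnt signals act in the specification of cardiac progenitors, in valve formation, and in the epicardium and the cells that leave it.

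RNA libraries held 4635226 to 8371594 counts and ATAC libraries 755606 to 6248597. Values are given as CPM, read counts set relative to each library's size, with sizes scaled by TMM (edgeR's scaling between libraries); 3 counts, the floor used below, were worth 0.309 to 0.717 CPM in RNA and 0.539 to 4.51 CPM in ATAC. The 5 epicardial marker genes (tcf21, tbx18, wt1a, wt1b, aldh1a2) summed to 515 to 1429 CPM in larval epicardium, 10.6 to 18.3 in non-epicardium, 542 to 571 after cryoinjury and 371 to 495 after sham surgery. The 7 cardiomyocyte markers summed to 154 to 1153 CPM in larval epicardium, 4248 to 12742 in non-epicardium, 13317 to 20203 after cryoinjury and 17847 to 34073 after sham surgery. The 5 erythrocyte markers reached 20985 to 29956 CPM in non-epicardium and at most 142 CPM in the other groups. In larval epicardium 27589 to 28961 genes had counts, against 14588 to 17178 in the adult libraries, and 57 to 58 members had counts in each larval epicardial library against 29 to 33 in each adult one. Larval epicardial replicate B stood apart: its median count per gene was 31, against 14 in each of A and C, and of the 35 members whose larval epicardial mean was under 5 CPM it had the highest value in 29.

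In larval hearts the epicardium was set apart by 1 R-spondin, 1 ligand, 4 Frizzleds, 1 Dickkopf, 1 Sfrp and 1 Tcf factor, all higher in the epicardium. These 9 of 52 tested members (17.3%) had an edgeR adjusted p under 0.05, where 13.4% of all 20745 tested genes did; 9 against 5.68% of all genes were higher and 0 against 7.77% were lower. By edgeR's unadjusted p, 19 of the 52 members and 5527 of the 20745 genes were under 0.05. The median log2 difference was 1.23 over the tested members and 0.32 over all genes, a value that DESeq2's scaling moved to 0.45 and scaling by total count to 0.93; the 9 called members lay above it under each. In bulk samples such as these, fewer cells of a type and less RNA per cell cannot be told apart.

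**Figure D1:**
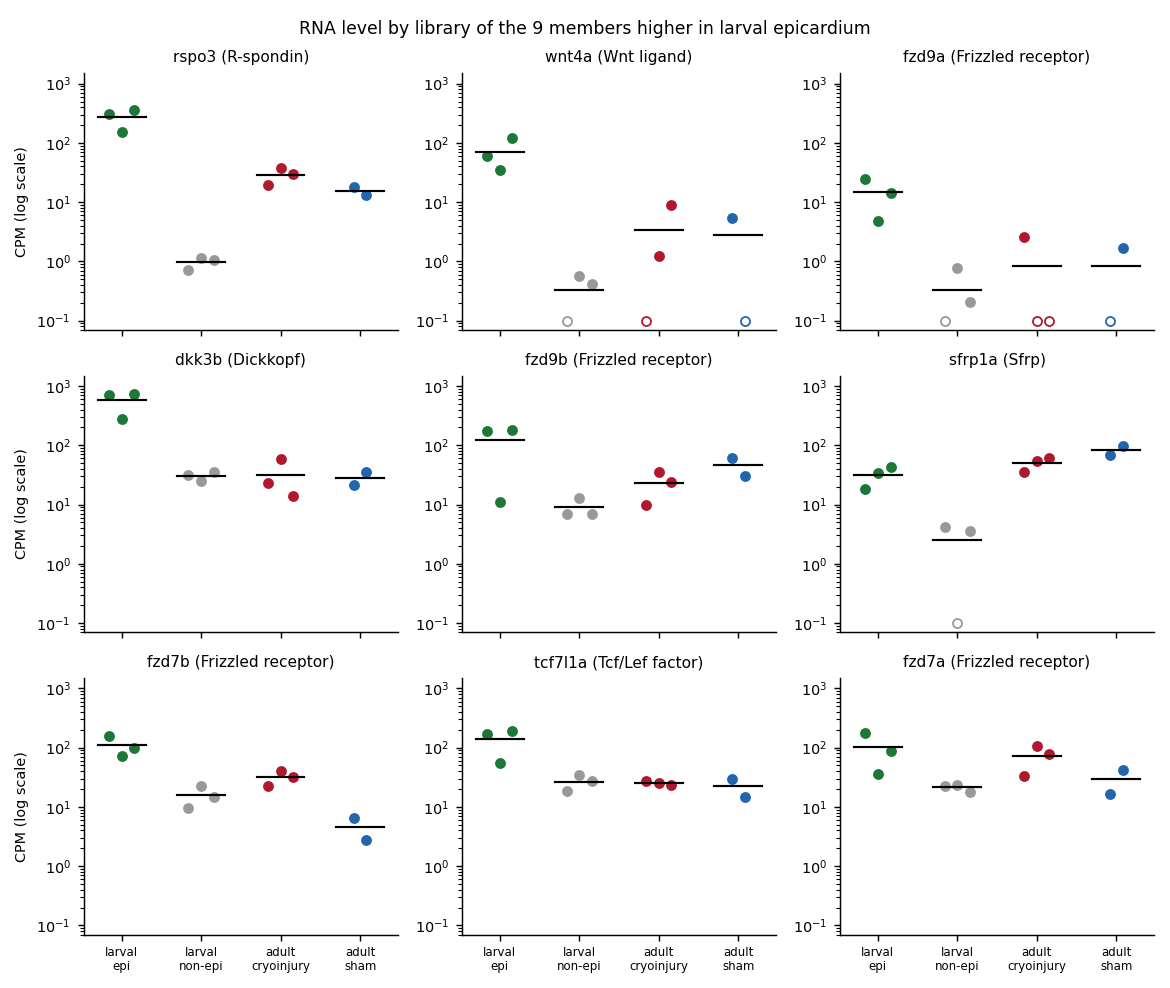
CPM on a log axis of the members described library by library in the larval comparison, for larval epicardium and non-epicardium and both adult groups; each dot is a library, the black line is the group mean, and an open circle marks a CPM of 0. rspo3, wnt4a and dkk3b show gaps between larval epicardium and non-epicardium, while fzd9b overlaps through 1 epicardial library at 11 CPM.

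Among the secreted agonists, rspo3 (ENSDARG00000070081) had the largest difference. It measured 307, 152 and 362 CPM in larval epicardium and 0.723, 1.15 and 1.04 CPM in non-epicardium, so the groups were far from overlapping. The log2 difference was 8.11 (SE 0.68, edgeR adjusted p = 2.56e-07). The other R-spondins went without a call: rspo2 measured 1.76, 2.88 and 0.636 CPM in epicardium against 17.9, 6.31 and 14.2 in non-epicardium (log2 difference -2.84, adjusted p = 0.175), and rspo1 measured 2.30, 4.12 and 1.02 CPM against 10.5, 8.79 and 6.68 (-1.79, adjusted p = 0.362). Neither of these pairs of groups overlapped, and in both the epicardial libraries were the low ones.

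Of the 21 tested ligands, wnt4a (ENSDARG00000071208) alone passed the test between larval fractions. It reached 59.9, 35.1 and 119 CPM in epicardium against 0, 0.573 and 0.417 CPM in non-epicardium, the latter from 0, 3 and 2 counts. Its log2 difference was 7.69 (SE 1.54, adjusted p = 0.00192), and every epicardial library lay above every non-epicardial one. Some other ligands lay apart without passing. wnt4b measured 9.87, 3.40 and 6.99 CPM against 1.08, 0.573 and 1.88 (2.50, adjusted p = 0.156), and wnt5b 19.5, 7.72 and 6.86 against 0.723, 1.15 and 4.38 (2.44, adjusted p = 0.208). wnt2 lay on the other side, at 0.541, 2.68 and 1.65 CPM in epicardium and 16.3, 8.98 and 20.4 in non-epicardium (-3.21, adjusted p = 0.075), as did wnt11r, known for its part in cell movement and muscle patterning, at 31.4, 20.6 and 34.3 against 59.8, 143 and 59.9 (-1.60, adjusted p = 0.183). In these 4 genes too the groups did not overlap, as in 27 of the 52 tested members. The share of all genes without overlap is not given here, so a lack of overlap does not by itself set a member apart in this comparison.

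Frizzleds are the receptors that bind the ligands, and 4 of the 12 were higher in the epicardium, all of them members of duplicated pairs. fzd9a (ENSDARG00000035185) measured 24.5, 4.74 and 14.5 CPM in epicardium and 0, 0.764 and 0.209 in non-epicardium (log2 difference 5.40, SE 1.71, adjusted p = 0.0402). Its paralogue fzd9b (ENSDARG00000014673) measured 177, 11 and 180 CPM against 7.05, 12.8 and 6.89 (3.78, SE 0.82, adjusted p = 0.00371). The fzd9a libraries did not overlap, whereas the fzd9b groups did, because epicardial replicate B at 11 CPM fell under non-epicardial replicate B. fzd7b (ENSDARG00000027589) measured 158, 73.0 and 96.7 CPM against 9.39, 22.5 and 14.8 (2.81, SE 0.60, adjusted p = 0.0031), and fzd7a (ENSDARG00000060004) measured 177, 36.0 and 88.2 against 22.9, 23.3 and 18.2 (2.23, SE 0.63, adjusted p = 0.0222). Neither fzd7 gene overlapped between the fractions. How reads shared by such paralogues were divided is not given in the sources used here, so the split within each pair is uncertain. The fzd9a call was lost without any 1 of the 6 larval libraries (adjusted p 0.068 to 0.141), and the fzd7a call without epicardial replicate A (adjusted p = 0.14) or non-epicardial replicate B (0.0747) or C (0.068).

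The secreted antagonists gave 1 gene from each family. dkk3b (ENSDARG00000070683), a divergent Dickkopf that is not known as a classical blocker of the Lrp co-receptor, measured 713, 282 and 721 CPM in epicardium and 31.1, 25.0 and 35.5 in non-epicardium (log2 difference 4.23, SE 0.60, adjusted p = 8.19e-05). sfrp1a (ENSDARG00000035521), which binds Wnt ligands outside the cell, measured 18.5, 34.0 and 43.1 CPM against 4.16, 0 and 3.55 (3.62, SE 0.83, adjusted p = 0.00569). Both genes were higher in all 3 epicardial libraries than in any non-epicardial one. Its paralogue sfrp1b, at 15.4, 2.68 and 10.9 CPM against 2.35, 0 and 0.626, also did not overlap but had an adjusted p of 0.14. dkk1a and dkk1b, the classical Lrp blockers, had their highest larval values in 1 non-epicardial library, 9.94 and 15.2 CPM in replicate A, and lay at 0 to 2.37 CPM in the other 5 larval libraries.

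Downstream, tcf7l1a (ENSDARG00000038159), a Tcf factor that in zebrafish acts mainly as a repressor of Wnt target genes, measured 169, 54.1 and 194 CPM in epicardium and 18.6, 34.0 and 26.9 in non-epicardium (log2 difference 2.39, SE 0.57, adjusted p = 0.00771), with no overlap. lef1, a Tcf/Lef member that mostly activates, was at 1.35, 4.33 and 1.78 CPM against 8.49, 8.22 and 21.7 and did not pass (-2.35, adjusted p = 0.208). axin2, a feedback inhibitor whose transcription beta-catenin induces in many tissues, measured 13.3, 12.5 and 10 CPM against 5.60, 12.8 and 10.4 (0.31, adjusted p = 0.808), and these groups overlapped. The 7 members called here other than fzd9a and fzd7a were called under each of the 12 alternatives. DESeq2's Wald test called 18 members (16 higher, 2 lower) and a fit of only these 6 libraries called 20 (15 higher, 5 lower). The shares of all genes called in these fits are not given here, so the larger counts do not set the members apart from other genes.

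Levels per kilobase of gene, which can be set beside each other between genes, put dkk3b first in larval epicardium at 512 ± 225 CPM per kb (SD, n = 3). It was followed by rspo3 at 121 ± 48.3, fzd9b at 61.1 ± 48.2, tcf7l1a at 44.7 ± 24.0, fzd7b at 38.4 ± 15.5, fzd7a at 36.4 ± 25.9, wnt4a at 31.8 ± 19.2 and sfrp1a at 17.8 ± 6.93. From fzd9b to wnt4a, neighbours in this order differed by less than their SDs. wnt11r led non-epicardium at 40.3 ± 22.0 CPM per kb, before dkk3b at 27.3 ± 4.69, and these did not differ beyond their spread either. After cryoinjury dkk3b, sfrp1a and fzd7a lay together at 28.7 ± 21.4, 28.1 ± 7.22 and 26.5 ± 13.7 CPM per kb, and after sham surgery sfrp1a came first at 46.3 ± 11.2 (n = 2).

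**Figure D2:**
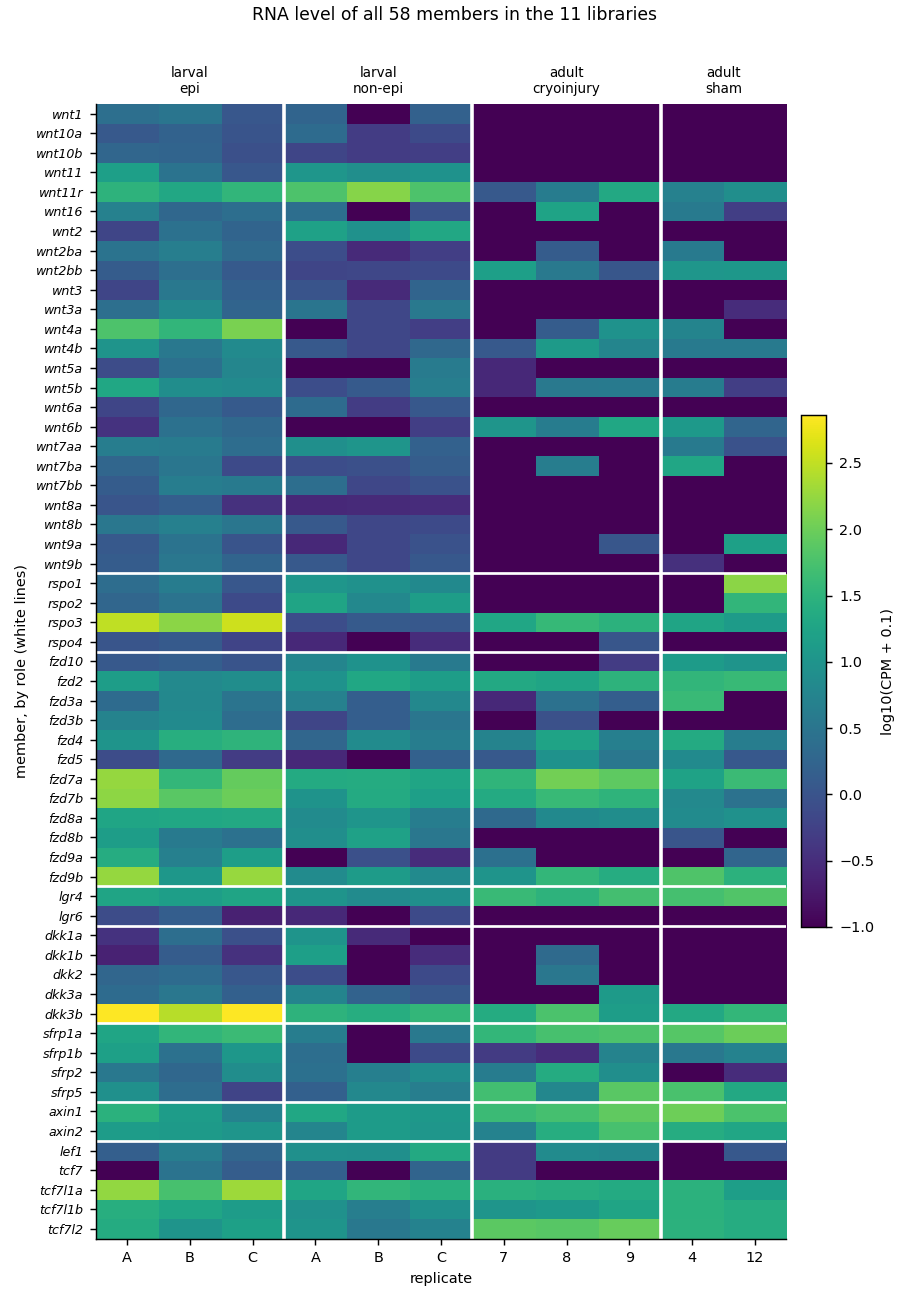
Heat map of log10(CPM + 0.1) for all 58 members (rows, grouped by role) in the 11 RNA libraries (columns), with white lines between roles and between groups. The 12 members at 0 in all 5 adult libraries appear as dark rows on the adult side, 10 of them Wnt ligands.

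The ligands with a group mean over 5 CPM were wnt4a, wnt4b, wnt5b, wnt11 and wnt11r in larval epicardium, wnt2, wnt7aa, wnt11 and wnt11r in larval non-epicardium, wnt2bb, wnt4b, wnt6b, wnt11r and wnt16 after cryoinjury, and wnt2bb, wnt6b, wnt7ba, wnt9a and wnt11r after sham surgery. Some of these means came from 1 library. wnt16 measured 0, 17.1 and 0 CPM after cryoinjury, wnt9a 0 and 15.5 CPM after sham surgery, and wnt7ba 19.1 and 0 CPM after sham surgery. wnt2bb was high in both sham libraries, at 10.5 and 11 CPM, and measured 14.8, 3.47 and 0.959 CPM after cryoinjury, against 1.22, 2.47 and 1.14 CPM in larval epicardium; the sham difference from larva did not pass (log2 difference 2.72, adjusted p = 0.0776).

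No library of the adult epicardium, cryoinjured or sham, held a count of 12 members: wnt1, wnt2, wnt3, wnt6a, wnt7bb, wnt8a, wnt8b, wnt10a, wnt10b, wnt11, dkk1a and lgr6. That is 20.7% of the 58 members, and among the 26971 genes of the table with at least 10 counts in all it was 20.5%. In larval epicardium none of the 58 was at 0 in all 3 libraries. The share at 0 after cryoinjury was 31.0% of members and 25.5% of genes, and after sham surgery 32.8% of members and 32.8% of genes.

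Against larval epicardium, the adult cryoinjury libraries were lower in 12 ligands, 3 R-spondins, 5 Frizzleds, 1 Dickkopf and 1 Tcf factor, and higher in sfrp5, axin1 and tcf7l2. These 25 members were 48.1% of those tested, where 38.1% of all tested genes were called; 42.3% of members against 26.0% of genes were lower, and 5.77% against 12.1% were higher. Sham libraries, compared with the same larval libraries, were called in 23 members (44.2%, against 37.2% of all genes), 17 lower (32.7% against 25.6%) and 6 higher (11.5% against 11.5%). The 2 comparisons share the 3 larval libraries and are therefore not independent. In each, 14 of the 52 tested members were at 0 in the adult group. Among the 20745 tested genes, 2442 for cryoinjury and 3921 for sham were at 0 in 1 group. The 14 members in each passed the filter through counts of other groups and could only be lower than larva. All called members kept their sign relative to the median of all genes under the TMM, DESeq2 and total-count scalings, which put that median between -0.59 and -0.96 for cryoinjury and between -0.92 and -1.53 for sham. Markers of other cell types moved with both comparisons: 7 of 7 cardiomyocyte, 5 of 5 leukocyte and 4 of 5 endothelial markers were called higher in each adult group, and of the 4 mural cell and fibroblast markers 4 were higher after cryoinjury and 3 after sham surgery. Of the 5 erythrocyte markers 2 were higher and 2 lower in each. Of the 5 epicardial markers 0 were higher and 2 lower in each. The epicardial medians were -0.86 for cryoinjury and -1.53 for sham, against -0.59 and -0.92 for all genes. Leukocyte markers summed to 256 to 532 CPM after cryoinjury, 148 to 166 after sham surgery and 7.57 to 15.9 in larval epicardium. Endothelial markers summed to 285 to 398, 431 to 739 and 96.7 to 162 CPM in the same order, and mural cell and fibroblast markers to 4516 to 8141, 2239 to 2502 and 476 to 644. Their part in the members' differences was not tested.

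**Figure D3:**
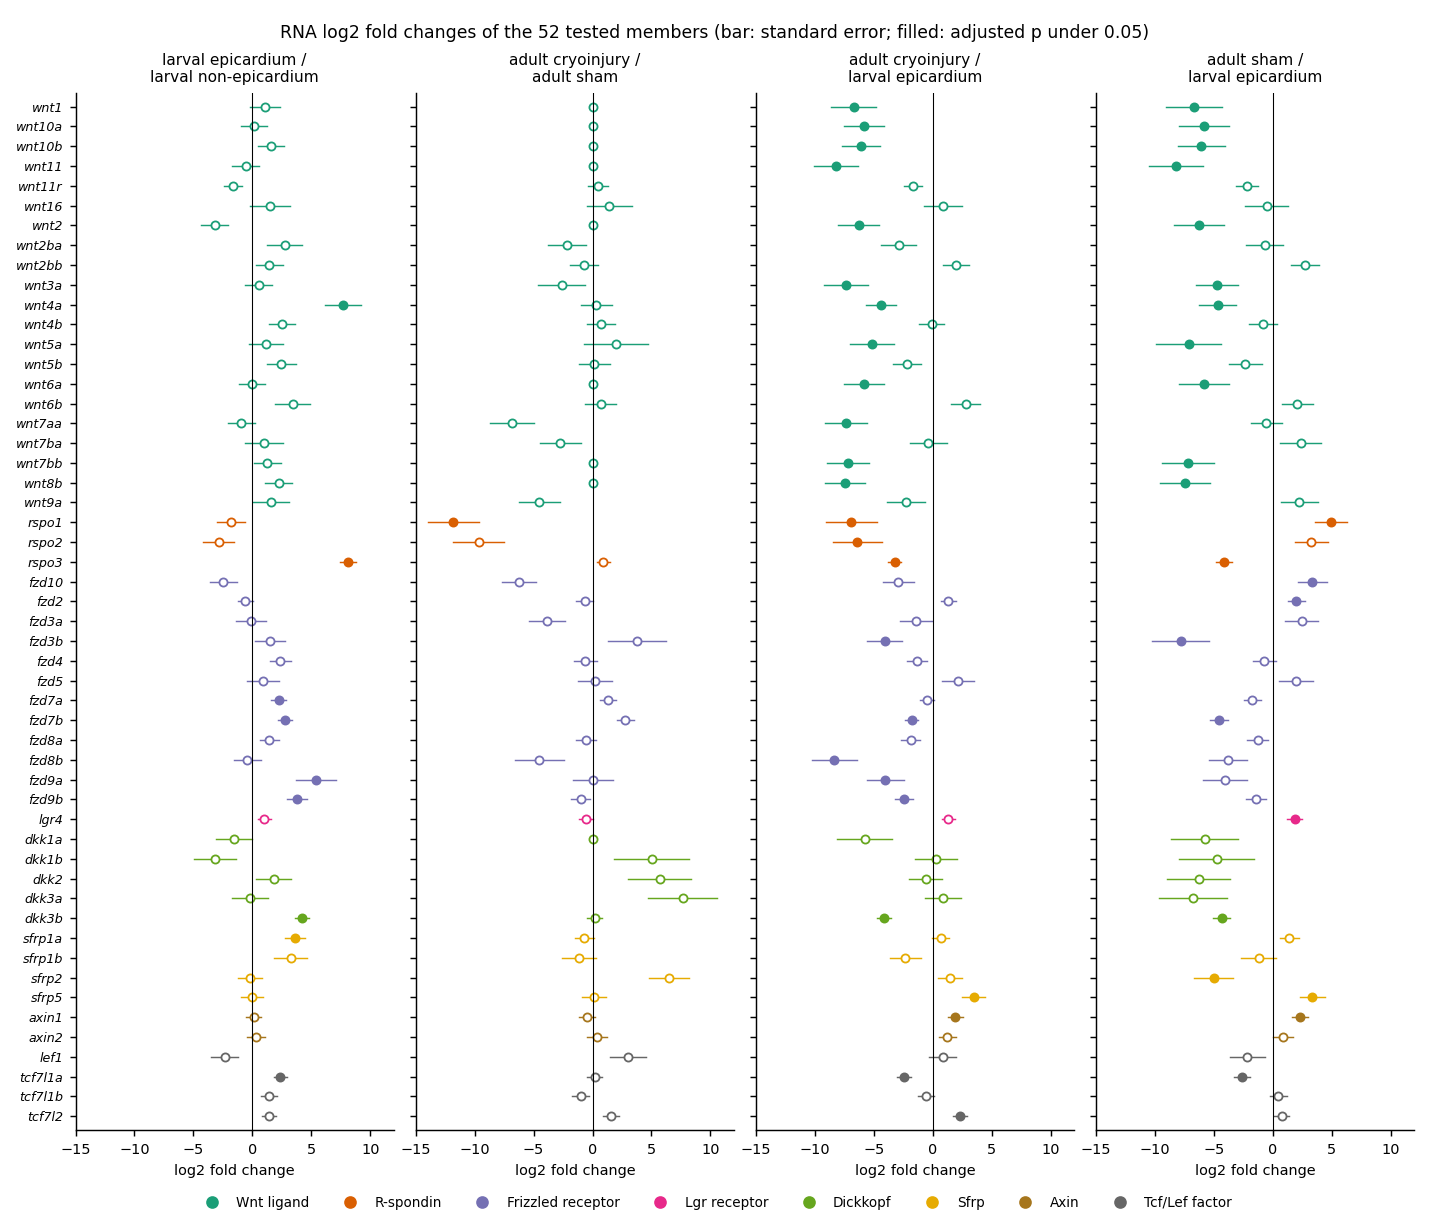
Log2 differences of the 52 tested members in the 4 RNA comparisons (a panel each), ordered by role; bars are SEs, filled points have an edgeR adjusted p under 0.05, and a member at 0 in both groups sits at 0 with no bar. The larval panel has 9 filled points, all higher, the cryoinjury to sham panel 1, and the panels of adult against larva 25 and 23, most of them lower.

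Of the ligands, 12 of 21 tested (57.1%) were lower after cryoinjury than in larval epicardium and 0 were higher; after sham surgery 11 (52.4%) were lower and 0 higher. Most of these ligands were near the floor already in the larva, so the fitted differences depend on how a count of 0 is treated. At 0 in all cryoinjury libraries were 10 of the tested ligands, and 9 were at 0 in both sham libraries. These ligands passed the filter through counts of other groups and could only be lower than larva. The shares above are therefore not evidence on the ligands as a set. The median over the tested ligands was -5.16 for cryoinjury as fitted and -1.91 with each gene that was at 0 in 1 group placed at its bound against 3 counts, and for sham it was -4.70 and -1.04. The corresponding medians over all 52 members were -2.22 and -1.46 for cryoinjury and -1.96 and -0.93 for sham, and over all genes -0.59 and -0.55, and -0.92 and -0.73.

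wnt11, a ligand of the beta-catenin-independent branch in zebrafish gastrulation, measured 14.7, 2.88 and 1.02 CPM in larval epicardium and 0 in all 5 adult libraries. Against the floor it was at least 10.7-fold lower after cryoinjury (adjusted p = 0.00357) and at least 9.19-fold lower after sham surgery (adjusted p = 0.0156). wnt8b, expressed in the developing brain, measured 3.25, 4.63 and 3.18 CPM and then 0 in the 5 adult libraries, at least 6.37-fold lower (adjusted p = 0.00354) and at least 5.45-fold lower (adjusted p = 0.0156). In both ligands every larval library lay above every adult one, and the larval levels were within a few CPM of the floor in most libraries.

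wnt7bb gave 1.22, 4.22 and 3.81 CPM in larval epicardium and 0 in the adult libraries, at least 5.33-fold lower after cryoinjury (adjusted p = 0.0054) and 4.56-fold lower after sham surgery (adjusted p = 0.0214). wnt1, which activates beta-catenin signalling in the brain, gave 2.43, 3.09 and 1.02 CPM and then 0, at least 3.77-fold (adjusted p = 0.0109) and 3.22-fold lower (adjusted p = 0.0352). These 2 genes and the next 2 had larval values of a few CPM at most, and no adult counts. wnt2 gave 0.541, 2.68 and 1.65 CPM and then 0, at least 2.81-fold (adjusted p = 0.00893) and 2.40-fold lower (adjusted p = 0.0307). wnt10b gave 1.76, 1.65 and 0.763 CPM and then 0, at least 2.40-fold (adjusted p = 0.00815) and 2.06-fold lower (adjusted p = 0.029). wnt6a and wnt10a, also at 0 in all adult libraries, passed in both comparisons with bounds of 1.73-fold to 2.04-fold. Their sham calls were not stable: each was kept in 3 of 10 alternatives and lost under DESeq2's Wald test.

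wnt7aa was at 0 after cryoinjury and not after sham surgery. It measured 4.19, 3.91 and 2.29 CPM in larval epicardium, 0 in the 3 cryoinjury libraries and 3.82 and 0.847 CPM in the sham libraries. It was at least 5.99-fold lower after cryoinjury (adjusted p = 0.00505), while for sham the log2 difference was -0.57 without a call, and the cryoinjury to sham difference itself did not pass (-6.80, adjusted p = 0.0852). wnt3a, a strong activator of beta-catenin signalling, measured 2.43, 6.28 and 1.65 CPM in larva, 0 in the cryoinjury libraries and 0 and 0.212 in the sham libraries. It was at least 5.98-fold lower after cryoinjury (adjusted p = 0.00544) and lower by a ratio of 32.8 after sham surgery (95% exact binomial interval 5.74 to 1310, from 1 count; adjusted p = 0.0467). wnt5a measured 0.676, 2.57 and 5.72 CPM in larva, 0.183, 0 and 0 after cryoinjury and 0 and 0 after sham surgery. The ratio was 46.8 for cryoinjury (interval 8.15 to 1874, from 1 count; adjusted p = 0.0371), and the level was at least 4.42-fold lower after sham surgery (adjusted p = 0.0474). In wnt3a and wnt5a too, all larval libraries lay above all adult ones. The lowest larval wnt5a value, 0.676 CPM, was however within the sham floor of 0.635 to 0.717 CPM, so that separation is not shown for it. Such intervals and floors hold the error of counting reads and no other, and not the spread between replicates. Whether copies made by PCR were removed is not given in the sources used here. Where copies were counted as separate reads, the intervals are too narrow.

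wnt4a, the ligand that set the larval epicardium apart, measured 0, 1.22 and 9.01 CPM after cryoinjury and 5.50 and 0 CPM after sham surgery, below the 35.1 to 119 CPM of the larval epicardium in every adult library. The log2 differences were -4.38 (SE 1.26, adjusted p = 0.0104) and -4.70 (SE 1.54, adjusted p = 0.0256). For 2 further ligands the adult differences did not pass. wnt6b measured 0.271, 2.68 and 1.91 CPM in larva, 10, 4.08 and 19.8 after cryoinjury (log2 difference 2.78, adjusted p = 0.0827) and 12.2 and 1.69 after sham surgery. wnt11r measured 1.1, 4.08 and 21.3 CPM after cryoinjury (-1.70, adjusted p = 0.0885) and 4.78 and 7.83 after sham surgery (-2.18, adjusted p = 0.0665). The sham wnt6b libraries overlapped the larval ones, as did the cryoinjury wnt11r libraries.

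The larval level of rspo3 was not reached in the adult epicardium. It measured 19.2, 37.9 and 30.1 CPM after cryoinjury and 17.7 and 13.1 CPM after sham surgery, against 152 to 362 CPM in larval epicardium. The log2 differences from larva were -3.23 (SE 0.52, adjusted p = 0.000153) and -4.15 (SE 0.65, adjusted p = 0.000134), and both remained called under each alternative. These adult values still lay above the 0.723 to 1.15 CPM of the larval non-epicardium. All 3 cryoinjury libraries were above both sham libraries, with a log2 difference of 0.92 that did not pass (adjusted p = 0.403).

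rspo1 and rspo2 rested on single adult libraries. rspo1 measured 0 in the 3 cryoinjury libraries and 0 and 154 CPM in the sham libraries, the last from 725 counts in sham replicate 12, against 2.30, 4.12 and 1.02 CPM in larval epicardium. It was at least 4.29-fold lower than larva after cryoinjury (adjusted p = 0.0174) and called higher than larva after sham surgery (4.93, SE 1.39, adjusted p = 0.0151), although the sham library at 0 lay under all larval ones; without sham replicate 12 the fitted difference was -6.90 (adjusted p = 0.101), and the call was also lost without larval replicate A (0.0503) or C (0.0545). rspo2 measured 1.76, 2.88 and 0.636 CPM in larva, 0 in the cryoinjury libraries and 0 and 34.3 in the sham libraries, the high one again being replicate 12. It was called lower than larva after cryoinjury (adjusted p = 0.0221) and not called after sham surgery (3.27, adjusted p = 0.0746). Without larval replicate B the cryoinjury calls were lost for rspo1 (adjusted p = 0.0855) and rspo2 (0.0826).

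Among Frizzleds, fzd8b measured 14.1, 3.81 and 2.67 CPM in larval epicardium, 0 in the cryoinjury libraries and 0.956 and 0 in the sham libraries. It was at least 11.8-fold lower after cryoinjury (adjusted p = 0.00345), and for sham it did not pass (-3.81, adjusted p = 0.0714). fzd3b measured 5.14, 7 and 2.29 CPM in larva, 0, 0.816 and 0 after cryoinjury and 0 in both sham libraries. The log2 difference was -4.08 (SE 1.48, adjusted p = 0.0361) after cryoinjury, and the level was at least 7.11-fold lower after sham surgery (adjusted p = 0.0216). For both receptors no adult library reached a larval one.

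The Frizzleds that were high in larval epicardium behaved unequally. fzd7b measured 22.8, 39.8 and 31.8 CPM after cryoinjury (log2 difference from larva -1.80, SE 0.57, adjusted p = 0.018) and 6.45 and 2.75 after sham surgery (-4.57, SE 0.78, adjusted p = 0.00029). All its cryoinjury libraries lay above both sham libraries, and the difference between them, 2.77 (SE 0.71), had an adjusted p of 0.0736. fzd7a measured 33.2, 108 and 78.2 CPM after cryoinjury and 16.7 and 42.4 after sham surgery, overlapping each other, and neither difference from larva passed (-0.46, adjusted p = 0.592, and -1.77, adjusted p = 0.0587). fzd9b measured 9.68, 35.3 and 24.0 CPM after cryoinjury (-2.41, adjusted p = 0.0181, with overlap) and 61.7 and 29.9 after sham surgery (-1.42, adjusted p = 0.195). fzd9a was at 2.56, 0 and 0 CPM and at 0 and 1.69 CPM (-4.05, adjusted p = 0.0478, and -4.05, adjusted p = 0.0927), below all larval libraries in each adult one.

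Some receptors had higher adult than larval values. fzd10 measured 1.08, 1.34 and 0.890 CPM in larval epicardium, 12.9 and 9.74 in the sham libraries and 0, 0 and 0.384 in the cryoinjury libraries. Its sham difference from larva was 3.33 (SE 1.21, adjusted p = 0.0383). Both sham libraries were thus above all larval and all cryoinjury libraries, and the cryoinjury to sham ratio was 87.5 in favour of sham (95% exact binomial interval 23.6 to 733, from 2 counts; adjusted p = 0.0548). fzd2 measured 13.9, 6.39 and 7.63 CPM in larva, 34.4 and 39.4 after sham surgery (1.99, SE 0.70, adjusted p = 0.0346) and 21.2, 17.7 and 31.1 after cryoinjury (1.32, adjusted p = 0.114). lgr4, a receptor of R-spondins, measured 17.7, 14.5 and 17.7 CPM in larva, 52.8 and 65.6 after sham surgery (1.83, SE 0.60, adjusted p = 0.0263) and 40.9, 31.4 and 50.6 after cryoinjury (1.30, adjusted p = 0.0695). In fzd2 and lgr4 no adult library overlapped the larval ones. These 3 sham calls were not stable: of 10 alternatives, fzd10 was called in 2, fzd2 in 3 and lgr4 in 5, and all were lost with total-count scaling, with only the groups compared and without either sham library.

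Among the antagonists, dkk3b was lower in the adult, at 23.2, 59.2 and 13.8 CPM after cryoinjury and 21.3 and 35.8 after sham surgery, against 282 to 721 CPM in larval epicardium, and the adult level overlapped that of larval non-epicardium. The log2 differences were -4.16 (SE 0.60, adjusted p = 4.79e-05) and -4.32 (SE 0.72, adjusted p = 0.000239). sfrp1a did not follow: it measured 36.0, 54.3 and 61.0 CPM and 68.8 and 97.2 CPM, with differences from larva of 0.66 (adjusted p = 0.516) and 1.38 (adjusted p = 0.18). sfrp5 was higher in the adult, at 48.2, 5.92 and 73.3 CPM after cryoinjury (3.48, SE 0.99, adjusted p = 0.0102) and 56.4 and 21.2 after sham surgery (3.35, SE 1.04, adjusted p = 0.0212), against 8.66, 2.27 and 0.508 in larva; cryoinjury replicate 8 lay within the larval range. sfrp2 measured 3.38, 1.85 and 7.63 CPM in larva, 4.02, 23.7 and 7.86 after cryoinjury and 0 and 0.212 after sham surgery. The sham level was lower than larva by a ratio of 36.7 (95% exact binomial interval 6.45 to 1465, from 1 count; adjusted p = 0.0247), and the cryoinjury to sham ratio was 102 (interval 18.1 to 4061; adjusted p = 0.0753). The 3 cryoinjury libraries lay above both sham libraries.

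The intracellular members showed higher axin1 and, after cryoinjury, higher tcf7l2. axin1, the scaffold of the complex that degrades beta-catenin, measured 28.9, 13.5 and 5.08 CPM in larval epicardium, 42.6, 52.6 and 81.7 after cryoinjury (1.90, SE 0.63, adjusted p = 0.0232) and 102 and 57.4 after sham surgery (2.33, SE 0.68, adjusted p = 0.017), with no overlap. With DESeq2 size factors the cryoinjury call of axin1 was lost, and with total-count scaling or without sham replicate 4 that of sham. tcf7l2, which with beta-catenin mostly activates target genes, measured 23.8, 9.68 and 15.4 CPM in larva, 77.3, 71.4 and 92.6 after cryoinjury (2.30, SE 0.60, adjusted p = 0.0062) and 30.1 and 24.4 after sham surgery (0.74, adjusted p = 0.374). The cryoinjury libraries of tcf7l2 lay above all others, and their difference from sham, 1.56, did not pass (adjusted p = 0.224). tcf7l1a was lower, at 27.8, 25.3 and 23.0 CPM (-2.45, SE 0.57, adjusted p = 0.00347) and at 30.1 and 14.6 CPM (-2.63, SE 0.68, adjusted p = 0.00831), below all larval epicardial libraries. axin2 measured 5.11, 25.5 and 54.5 CPM after cryoinjury and 24.1 and 19.3 after sham surgery, without a call (1.25, adjusted p = 0.205, and 0.86, adjusted p = 0.43).

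Several of these calls rested on 1 library. Without larval replicate B, 14 of the 25 cryoinjury calls remained and 4 ligands (wnt1, wnt6a, wnt10a, wnt10b) were no longer tested. Without larval replicate C the wnt4a call was lost (adjusted p = 0.0582), as was that of axin1 without cryoinjury replicate 9 (0.0808) or larval replicate B (0.0602) or C (0.0923), and that of sfrp5 without larval replicate B (0.0558). fzd7b lost its cryoinjury call without cryoinjury replicate 7 (0.0655) or larval replicate A (0.0994), and fzd9b without these (0.0637 and 0.0828) or larval replicate C (0.0769). fzd3b, fzd9a and wnt5a lost theirs without any larval replicate and without some cryoinjury replicates (0.0536 to 0.18). Of 10 alternatives, the sham call of wnt3a was kept in 4, and those of wnt1, wnt2, wnt5a and wnt10b in 5. That of wnt11 was kept in 7, and those of wnt4a, wnt7bb and wnt8b in 8. For sham, which has 2 libraries, 5 of the 23 calls remained without replicate 12 and 6 without replicate 4, and 14, 13 and 10 without larval replicates A, B and C; dkk3b, rspo3 and fzd7b were called in each of these fits.

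Between cryoinjury and sham the test found 1 member, rspo1, lower after cryoinjury (log2 difference -11.83, SE 2.15, adjusted p = 0.0297), where 0.318% of all tested genes were called (0.0916% lower and 0.227% higher). That call came from the 725 counts of sham replicate 12: the other sham library and the 3 cryoinjury libraries were at 0, the groups overlapped, and without replicate 12 all remaining libraries were at 0. By edgeR's unadjusted p, 12 members and 3879 genes were under 0.05. The differences nearest the threshold were those of fzd10 (-6.25, adjusted p = 0.0548), rspo2 (-9.67, adjusted p = 0.0548), fzd7b, sfrp2 and wnt7aa, whose values are given above. The median member difference was 0.

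Other genes of the pathway, from lists of Wnt secretion and co-receptor genes, intracellular components, planar polarity genes and target genes, were described in the same way, first in the larva. Of 19 tested secretion and co-receptor genes 6 were higher in larval epicardium and 0 lower: tspan12, a partner of Frizzled (log2 difference 5.59, adjusted p = 6.68e-05), the Lrp-binding antagonists sost (4.01, adjusted p = 0.00134) and sostdc1a (3.29, adjusted p = 0.0137), tmem88b (3.25, adjusted p = 0.000891), the Wnt receptor ryk (3.22, adjusted p = 0.000902) and the co-receptor lrp5 (2.30, adjusted p = 0.011). Of 32 intracellular genes 2 were higher and 0 lower, dact1, a Dishevelled-binding protein (5.27, adjusted p = 0.00148), and csnk1da (2.06, adjusted p = 0.00621). Planar polarity genes gave 4 higher and 0 lower of 18, namely prickle1b (2.22), prickle2b (2.21), daam1a (1.92) and daam1b (1.89). Of 13 tested target genes 0 were higher and 1, ccnd1, was lower (-1.98, adjusted p = 0.00798). Of all genes, 5.68% were higher and 7.77% lower. The medians of these 4 lists were 1.65, 0.79, 1.48 and 0.68, against 0.32 for all genes.

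After cryoinjury, compared with larval epicardium, 1 of 19 secretion and co-receptor genes was higher and 6 lower, 5 of 32 intracellular genes were higher and 5 lower, 7 of 18 planar polarity genes were higher and 4 lower, and 0 of 13 targets were higher and 7 lower, where 12.1% of all genes were higher and 26.0% lower. For sham, against the same larval libraries, these counts were 3 and 6, 4 and 6, 5 and 3, and 1 and 6, where 11.5% of all genes were higher and 25.6% lower. The list medians were -1.16, 0.16, 0.71 and -1.77 for cryoinjury and -0.33, 0.16, 0.79 and -1.27 for sham, against -0.59 and -0.92 for all genes. Among the targets, myca had a log2 difference of -3.06 for cryoinjury (adjusted p = 0.00541) and -3.37 for sham (adjusted p = 0.013), mycb -2.92 (0.000324) and -4.35 (8.46e-05), id2a -2.92 (0.000229) and -2.78 (0.00164), and bambia -2.58 (0.0014) and -1.81 (0.0274). These genes answer to many signals besides Wnt. Those named here were lower in both adult groups than in larval epicardium, while 1 target was called higher after sham surgery. The degradation complex genes apc (3.08, adjusted p = 0.000372) and gsk3b (2.08, adjusted p = 0.00516) were higher after cryoinjury, as they were after sham surgery (2.99, adjusted p = 0.000873, and 1.81, adjusted p = 0.0206). They were among the 5 intracellular genes higher after cryoinjury and the 4 higher after sham surgery, beside 5 and 6 that were lower. Between cryoinjury and sham, ndp, which encodes the Frizzled ligand Norrin, was lower after cryoinjury, at 0 in all 3 libraries against 17.9 and 10.2 CPM in sham (adjusted p = 0.0469), and no other gene of the 4 lists was called. Genes of these lists were not put through the alternatives, and the fit of the compared groups alone called 0 genes between cryoinjury and sham.

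Accessibility was measured over the 214 peaks assigned to members, of which 212 passed the filter. The deposited annotation names the gene of the nearest transcription start, so an assignment is by position and not by shown regulation, and the feature it gives can belong to another gene. Introns held 48.6% of the member peaks and 42.9% of all peaks, intergenic sequence 30.4% and 24.9%, and promoters 12.1% and 20.6%. Members with most peaks were wnt5b (18), fzd8a (16), and axin2, lgr4 and tcf7l1a (14 each). No peak was assigned to wnt3a, wnt4a, wnt5a, wnt7aa, wnt8a, wnt8b, wnt9b, fzd4, sfrp1b, sfrp2, dkk1b or dkk2, so wnt4a, the ligand with the largest larval RNA difference, cannot be described here. Coordinates below are as deposited, on GRCz10 per the submitters' processing notes, and the named peaks span 501 bases. A count of 1 in these files stands for 1 read or none.

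With the tcf21 reporter, 12 member peaks were more accessible and 13 less accessible in larval epicardium than in non-epicardium. These were 5.66% and 6.13% of the tested member peaks, against 6.69% and 6.55% of all tested peaks. In all, 11.8% of member peaks and 13.2% of all peaks were called. With the tbx18 reporter 41 were more and 25 less accessible, 19.3% and 11.8% of member peaks against 13.8% and 13.1% of all peaks. Here 31.1% of member peaks and 26.9% of all peaks were called. The tcf21 and tbx18 libraries are separate. The tbx18 comparison also called 11 of the 12 peaks that were more accessible with tcf21 (91.7% of the 12 and 26.8% of the 41). Over all peaks the corresponding share was 69.5% of those with more tcf21 accessibility. Of the 13 lower with tcf21, 5 were lower with tbx18 (38.5%, and 20.0% of the 25), against 48.4% of all peaks lower with tcf21, and 0 were called in opposite directions. The tcf21 libraries held 755606 to 2273259 counts and the tbx18 libraries 2051230 to 6248597.

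**Figure D4:**
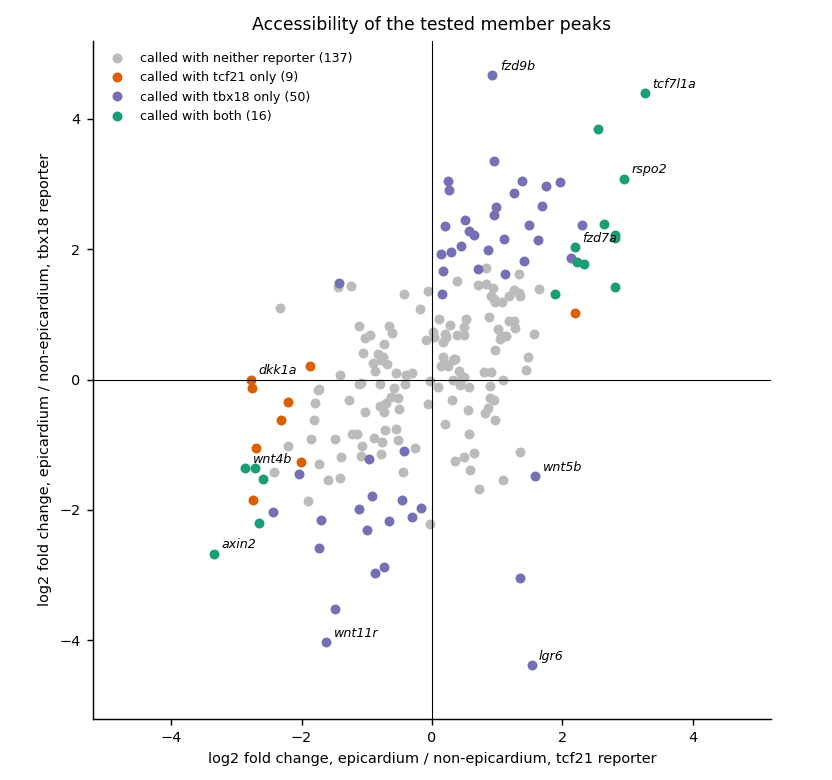
Log2 difference in accessibility between larval epicardium and non-epicardium for 212 member peaks, with the tcf21 reporter on one axis and the tbx18 reporter on the other, coloured by which comparison called the peak. Called by both reporters are 16 peaks, by tbx18 only 50, by tcf21 only 9 and by neither 137.

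By role, the tbx18 comparison called 7 of 13 R-spondin peaks higher and 1 lower, 4 of 12 Sfrp peaks higher and 0 lower, and 9 of 47 Frizzled peaks higher and 2 lower. Of the R-spondin peaks called higher, 4 belonged to rspo2, 2 to rspo4 and 1 to rspo3. Ligand peaks were split, 8 higher and 8 lower of 53, as were Tcf/Lef peaks, 7 and 6 of 43. Axin peaks went mostly the other way, 2 higher and 7 lower of 17, and 6 of those lower belonged to axin2. Lgr peaks gave 3 higher and 1 lower of 20, and Dickkopf peaks 1 higher and 0 lower of 7. Among all tested peaks, tbx18 gave 13.8% higher and 13.1% lower. The tcf21 comparison called 2 of the R-spondin peaks higher and 0 lower, and 0 Sfrp peaks in either direction. For Frizzled peaks it gave 3 higher and 1 lower, for ligands 2 and 4, and for Tcf/Lef 4 and 4. Axin peaks had 0 and 2, Lgr peaks 1 and 1, and Dickkopf peaks 0 and 1. The Sfrp calls thus came from tbx18 only, and whether library size played a part was not tested.

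The peaks with the largest called differences lay at tcf7l1a, rspo2, axin2 and wnt4b for tcf21. An intronic peak 5.02 kb upstream of the tcf7l1a start (chr10:42413695-42414195) measured 67.1 and 105 CPM in tcf21 epicardium against 11.5 and 4.67 in non-epicardium, and 95.8 and 90.8 against 3.24 and 6.32 with tbx18. The log2 differences were 3.27 (SE 0.48, adjusted p = 5.9e-06) and 4.40 (SE 0.48, adjusted p = 8.82e-09), with no overlap in either, at a gene whose RNA was also higher in larval epicardium. Of the 14 tcf7l1a peaks, 3 were called higher and 4 lower with tcf21, and 3 higher and 1 lower with tbx18. An intronic peak 14.7 kb downstream of the rspo2 start (chr16:38553247-38553747) measured 20.1 and 15.0 CPM against 0.998 and 4.67 with tcf21 (2.95, SE 0.73, adjusted p = 0.00447) and 21.7 and 14.9 against 2.16 and 2.11 with tbx18 (3.09, SE 0.58, adjusted p = 9.43e-05). Its epicardial libraries were the high ones with both reporters, whereas rspo2 RNA was at 0.636 to 2.88 CPM in larval epicardium and at 6.31 to 17.9 in non-epicardium. The tcf21 call at rspo2 was lost without tcf21 non-epicardial replicate 1 (adjusted p = 0.194).

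On the less accessible side, a peak 148 kb upstream of the axin2 start (chr3:55546853-55547353) measured 1.12 and 1.5 CPM in tcf21 epicardium, 1 count each, against 16.0 and 10.5 in non-epicardium (-3.34, SE 0.98, adjusted p = 0.0174), and 1.41 and 0.513 against 7.91 and 6.32 with tbx18 (-2.67, SE 0.76, adjusted p = 0.00735). An intergenic peak 4.08 kb upstream of wnt4b (chr16:31842286-31842786) measured 6.71 and 1.5 CPM against 36.9 and 26.8 with tcf21 (-2.86, SE 0.67, adjusted p = 0.00266) and 6.84 and 11.8 against 26.6 and 19.5 with tbx18 (-1.36, SE 0.51, adjusted p = 0.0433). In both peaks all epicardial libraries lay below the non-epicardial ones of their reporter. The axin2 call with tcf21 was lost without either tcf21 epicardial library or non-epicardial replicate 1 (adjusted p 0.107 to 0.166), that with tbx18 without epicardial replicate 2 (0.0702) or non-epicardial replicate 1 (0.0631). At wnt4b the tcf21 call was lost without epicardial replicate 2 (0.0823) or non-epicardial replicate 1 (0.0551), and the tbx18 call without any of its 4 libraries (0.0554 to 0.328).

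With the tbx18 reporter, the peaks named besides that of tcf7l1a lay at fzd9b, lgr6 and wnt11r. An intergenic peak 19.5 kb downstream of the fzd9b start (chr18:41640688-41641188) measured 8.45 and 8.21 CPM in epicardium and 0.180 and 0.527, 1 count each, in non-epicardium (4.67, SE 1.02, adjusted p = 0.000566), and 4.47 and 7.51 against 3.49 and 2.33 with tcf21, which did not pass (0.93, adjusted p = 0.576). An intronic peak 13.6 kb downstream of the wnt11r start (chr10:32173762-32174262) measured 0.201 and 1.03 CPM against 9.35 and 7.38 with tbx18 (-4.03, SE 0.88, adjusted p = 0.000571, and 0.059 without epicardial replicate 1) and 1.12 and 3.00 against 5.49 and 7 with tcf21 (-1.62, adjusted p = 0.299). At these fzd9b and wnt11r peaks the order of the fractions was the same with both reporters. rspo3, with the largest larval RNA difference, had 1 peak, intronic and 1.59 kb upstream of its start (chr16:40349182-40349682); it measured 10.1 and 11.8 CPM against 4.32 and 1.05 with tbx18 (1.82, SE 0.68, adjusted p = 0.0413, lost under DESeq2's Wald test and without 3 of the 4 libraries, at 0.095 to 0.198) and 2.24 and 6.01 against 0.998 and 2.33 with tcf21, where the groups overlapped. dkk3b had 1 peak of 3 called higher with tbx18, at its promoter (2.52, adjusted p = 0.00357, and 0.0593 without tbx18 non-epicardial replicate 1).

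The epicardial difference itself differed between reporters at 2 member peaks (0.943% of those tested), both with a higher tcf21 than tbx18 value. Of all tested peaks 1.51% were called (1.1% in that direction and 0.409% in the other). At an intronic peak 42.9 kb downstream of the lgr6 start (chr23:5386182-5386682), tcf21 libraries held 4.47 and 1.5 CPM in epicardium and 0.998 and 1.17 in non-epicardium, from 1 to 4 counts each, while tbx18 libraries held 0.201 and 0.513 against 8.81 and 5.27 (-4.38, SE 0.93, adjusted p = 0.000386). At an intergenic peak 13 kb upstream of the wnt5b start (chr4:8518460-8518960), tcf21 libraries held 24.6 and 27.0 CPM in epicardium against 6.49 and 11.7 in non-epicardium (1.58, SE 0.57, adjusted p = 0.058), and tbx18 libraries held 17.1 and 8.72 against 33.8 and 41.1 (-1.48, SE 0.47, adjusted p = 0.0165, lost without 3 of these 4 libraries at 0.053 to 0.187). Within each reporter the groups did not overlap at wnt5b, and their order was opposite. The difference between reporters was 5.91 (SE 1.5, adjusted p = 0.0355) at lgr6 and 3.07 (SE 0.74, adjusted p = 0.0282) at wnt5b, and each was lost without any of 6 of the 8 larval libraries (adjusted p 0.052 to 0.356 and 0.0541 to 0.16).

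**Figure D5:**
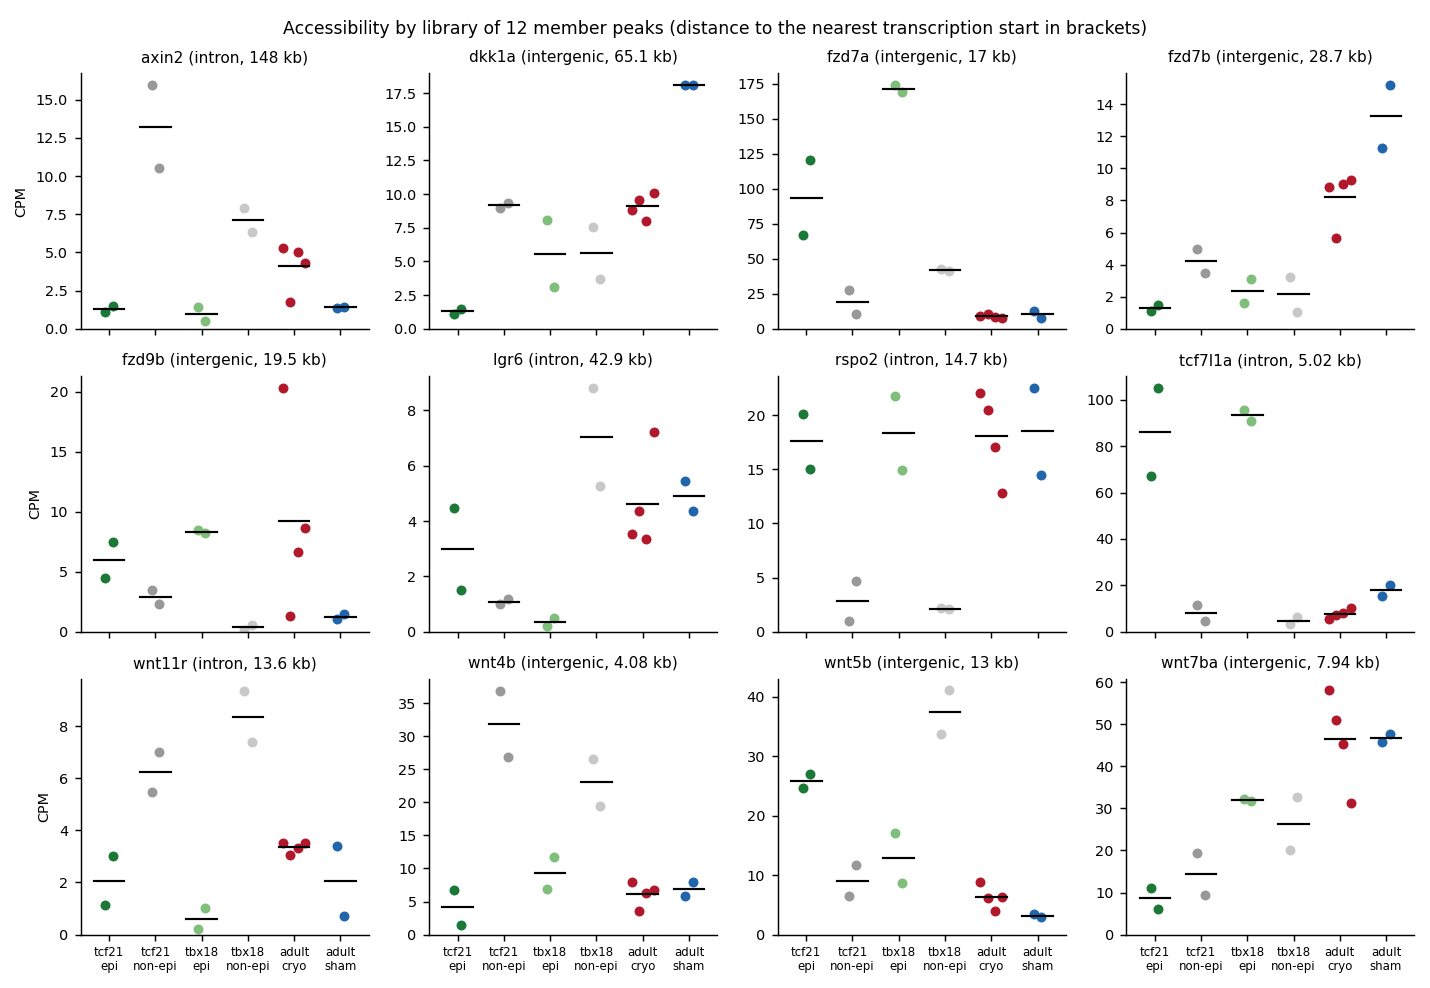
CPM of the 12 named member peaks in the 14 ATAC libraries, by group; dots are libraries and lines are group means. The tcf7l1a and fzd7a peaks are high in larval epicardium with both reporters and low in the adult groups, and the wnt7ba and dkk1a peaks are higher in the adult groups than in tcf21 larval epicardium.

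In adult epicardium after cryoinjury, 4 member peaks were more and 26 less accessible than in tcf21 larval epicardium. These were 1.89% and 12.3% of the tested member peaks, against 3.98% and 10.1% of all tested peaks. In all, 14.2% of member peaks and 14% of all peaks were called. For sham, set against the same 2 larval libraries, 3 were more and 12 less accessible, 1.42% and 5.66% against 2.34% and 5.30% of all peaks. Here 7.08% of member peaks and 7.64% of all peaks were called. Under total-count scaling the cryoinjury calls were 11 higher and 14 lower, and the sham calls 6 and 8, for which the shares of all peaks are not given here. Frizzled peaks accounted for 9 of the 26 lower after cryoinjury (19.1% of 47 tested) and Tcf/Lef peaks for 7 (16.3% of 43). Ligand peaks accounted for 6 (11.3% of 53) and Axin peaks for 2 (11.8% of 17). Lgr peaks gave 1 (5% of 20) and Sfrp peaks 1 (8.33% of 12), where 10.1% of all peaks were lower. By gene, 5 peaks each of wnt5b, tcf7l1a and fzd7a were lower after cryoinjury. Of the 41 member peaks higher in larval epicardium with tbx18, libraries not used in this comparison, 9 were lower after cryoinjury (22.0% of the 41, 34.6% of the 26) and 8 after sham surgery (19.5%, and 66.7% of the 12). The corresponding shares over all peaks were not computed, so these overlaps do not set the members apart from other peaks.

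The tcf7l1a intronic peak held 5.29, 7.41, 8.01 and 10.3 CPM after cryoinjury and 15.4 and 20.3 after sham surgery, against 67.1 and 105 in larval epicardium (-3.39, SE 0.37, adjusted p = 7.32e-09, and -2.28, SE 0.44, adjusted p = 0.000653). An intergenic peak 17.0 kb upstream of fzd7a (chr9:13400597-13401097) held 67.1 and 120 CPM in tcf21 larval epicardium, 8.82, 10.9, 8.35 and 7.61 after cryoinjury (-3.39, SE 0.36, adjusted p = 4.66e-09) and 13 and 7.97 after sham surgery (-3.09, SE 0.45, adjusted p = 1.46e-05). In the larva this fzd7a peak was also higher in epicardium than in non-epicardium, with 27.4 and 10.5 CPM in the latter with tcf21 (2.2, SE 0.43, adjusted p = 0.000365) and 174 and 169 against 42.6 and 41.1 with tbx18 (2.03, SE 0.39, adjusted p = 0.000106). All adult libraries lay below all larval epicardial ones at both peaks, and these calls were kept under each alternative. The wnt5b peak was lower too, at 8.82, 6.11, 4.01 and 6.38 CPM after cryoinjury (-2.07, adjusted p = 0.0017) and 3.41 and 2.90 after sham surgery (-2.98, SE 0.61, adjusted p = 0.00134). Its cryoinjury call was lost with the replicate block (edgeR adjusted p = 0.144). The tbx18 larval epicardium, not part of that comparison and given above for this peak, reached into the cryoinjury range.

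Higher in the adult was an intergenic peak 7.94 kb upstream of wnt7ba (chr4:18704961-18705461), with 58.2, 51.0, 45.4 and 31.3 CPM after cryoinjury (2.37, SE 0.48, adjusted p = 0.000455) and 45.7 and 47.8 after sham surgery (2.39, SE 0.51, adjusted p = 0.00226), against 11.2 and 6.01 in tcf21 larval epicardium. The tbx18 larval epicardium, not part of that comparison, held 32.2 and 31.8 CPM there, within the cryoinjury range. A peak 65.1 kb downstream of dkk1a (chr13:40961494-40961994) held 1.12 and 1.5 CPM in larval epicardium, 1 count each, 8.82, 9.59, 8.01 and 10.1 after cryoinjury (2.79, SE 0.89, adjusted p = 0.0292) and 18.1 and 18.1 after sham surgery (3.76, SE 0.89, adjusted p = 0.00589), while dkk1a RNA was at 0 in all adult libraries. A peak 28.7 kb upstream of fzd7b (chr6:9500537-9501037) held 1.12 and 1.5 CPM in larval epicardium, 1 count each, 11.3 and 15.2 after sham surgery (3.30, SE 0.96, adjusted p = 0.0275) and 8.82, 5.67, 9.02 and 9.26 after cryoinjury (2.63, adjusted p = 0.0514). No adult library overlapped the tcf21 larval ones at these 3 peaks. The dkk1a cryoinjury call was lost under DESeq2's Wald test, with halved counts and with the replicate block. DESeq2's Wald test and halved counts also lost the fzd7b sham call. Without a tcf21 larval epicardial library the dkk1a call was lost in both comparisons (0.0561 to 0.217), as it was for cryoinjury without cryoinjury replicate 4 (0.0514); the wnt7ba sham call was lost without larval replicate 2 (0.0656), and the fzd7b sham call without any of its 4 libraries (0.0627 to 0.192).

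Between cryoinjury and sham, 0 of the 212 tested member peaks were called by edgeR or by DESeq2, where 0.00162% of all tested peaks were called by edgeR. By edgeR's unadjusted p, 22 of the 212 member peaks were under 0.05, 15 higher and 7 lower after cryoinjury. Among all 61883 tested peaks, 4139 were under 0.05.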

How the data were processed

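RNA was measured in 11 and chromatin accessibility in 14 zebrafish libraries, polyadenylated RNA being amplified with SMART-Seq v4, per the labels' protocols. The authors deposited whole-number read counts per gene (31275 genes) and per peak of a set shared by all ATAC libraries (61954 peaks). The submitters' processing notes list GRCz10, Bowtie 1.2.3, SAMtools 1.10, MACS2 2.2.7.1, HOMER, DiffBind 3.0.13, STAR 2.7.3a, featureCounts and edgeR 3.32.1 without roles; the strand setting is not given in the sources used here. 14 deposited FPKM columns were not used. The larval RNA columns carry other numbers than the sample titles, so those libraries were assigned by group and named A, B and C.

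Counts were tested with edgeR 4.0.16 in R 4.3.3 (quasi-likelihood, two-sided, TMM scaling, filterByExpr by group with a minimum count of 10 and a minimum total of 15, all libraries of an assay in 1 fit). Benjamini-Hochberg adjustment ran over all 20745 genes or 61883 peaks, and an adjusted p under 0.05 is referred to as called. SE is the absolute log2 difference divided by the square root of F. A group with 0 counts in every library was set at 3 counts per library for a lower bound of the fold. Replicates of a group differed by more than sampling noise (chi-square over its degrees of freedom: 22.2 to 67.2 for RNA, 3.03 to 4.63 for ATAC), so each library counted once. Alternatives were DESeq2 1.42.0 size factors and Wald test, total-count scaling, no filter, a fit of the compared groups alone, halved ATAC counts, a replicate block and leaving out each library.

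All members called in an RNA comparison were named, with values in every library for the 8 largest differences per comparison, and 2 called peaks per ATAC comparison and direction with at least 1 CPM and no overlap. The rspo3 and dkk3b peaks and members printed without a call were chosen after their values were seen. The members, the pathway lists and the markers were chosen with earlier results of these data known. Figures used Python 3.11.15, pandas 2.3.3 and matplotlib 3.10.9.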

Additional observations from a re-analysis of the deposited data

Results flagged for a closer look

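In the peak 28.7 kb upstream of fzd7b, cryoinjury replicate 2 stood apart from the other 3 cryoinjury libraries, at 5.67 CPM against 8.82 to 9.26, with a gap of 0.878 of the group's range; it was 1 of 12 named peaks looked at, and chance alone sets about 1 in 20 such groups apart.

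The epicardial log2 difference was higher with the tcf21 than with the tbx18 reporter by 5.91 at the lgr6 peak and by 3.07 at the wnt5b peak in the test of that difference (edgeR adjusted p = 0.0355 and 0.0282). At lgr6 the 4 tcf21 libraries held 1 to 4 counts each.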

How the results depend on the processing

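In this section counts of called members are given without the shares of all genes or peaks called under the same setting. The exception is the fit in which 0 of all genes were called. A larger count is thus not a result about the members. Fits that left out 1 library, and the replicate block for cryoinjury against larva in ATAC, are described below. Elsewhere the counts stayed within 1.5 times the reported number except as follows. Larval epicardium against non-epicardium gave 18 under DESeq2's Wald test, 20 with only the groups compared and 16 with the replicate block on those groups, in place of 9. Cryoinjury against sham gave 3 with DESeq2 size factors, 6 under DESeq2's Wald test, 4 with no filter, 3 with total-count scaling and 0 with only the groups compared (0 of all genes), in place of 1. Cryoinjury against larva gave 14 with only the groups compared, in place of 25: that fit tested 36 members, and the other 11 of the 25 were not among them. Of the 2 peaks that differed between reporters, 1 remained with halved counts and with DESeq2, and 0 with only the groups compared, with or without the replicate block.

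Leaving out 1 library gave 7 to 8 members for the larval RNA comparison, 1 to 3 for cryoinjury against sham, 14 to 27 for cryoinjury and 6 to 15 for sham against larva. For peaks it gave 11 to 22 with tcf21, 30 to 45 with tbx18, 0 to 1 for the difference between reporters, 0 for cryoinjury against sham, 14 to 30 for cryoinjury and 7 to 10 for sham against larva. A lone library left in a sham or larval ATAC group is assumed to vary like the other groups. The rspo1 difference between sham and larva reversed to -6.90 without sham replicate 12 and was 5.99 without replicate 4. The cause of these changes was not tested.

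The replicate block was fitted on the compared groups only. The larval RNA columns share numbers, which are not those of the titles, and same-numbered columns did not deviate together (correlations -0.206 to 0.0485; 0 of 3 correlated best with their own number); the other RNA comparisons share no numbers. In ATAC the correlations were -0.0383 to 0.116, and the count for cryoinjury against larva was 30 on the compared groups and 10 with the block. The search for Tcf/Lef motifs in member promoters was not run, as no sequence was at hand.

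The floor of up to 0.717 CPM in RNA limits what can be seen of ligands at a few CPM: a level at 0 in the adult is a level below that floor. Each ATAC group except cryoinjury had 2 libraries.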
